A study of Mus musculus with 4 samples.

Results

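The 7 genes described here, Tnfsf11, Cd40lg, Ltb, Lta, Tnf, Tnfsf14 and Tnfsf8, encode ligands of the tumour necrosis factor (TNF) family and were taken by name from a count table of 35275 mouse genes. All 7 were found there, and all 7 were among the 12490 genes that had 2 or more CPM (counts relative to the depth of a library) in 1 or more of the libraries, the level at which a gene was called measured. The counts came from thymocytes of untreated C57BL/6 mice aged 6 to 8 weeks, stained for CD69 and TCRβ and sorted by flow cytometry. There were 4 libraries, 1 for each group: Uba3ΔT group 3, Uba3ΔT group 2, Uba3F/F group 3 and Uba3F/F group 2. Group 3 was TCRβhiCD69hi and group 2 TCRβintCD69hi, and the comparison of both across genotypes asked how expression in mice labelled as lacking Uba3 in T cells differs from that in floxed mice. The protein UBA3 is the catalytic partner in the NEDD8-activating enzyme, which starts the attachment of NEDD8 to cullins and other targets. The Uba3ΔT libraries are labelled Uba3-/- in the genotype field and KO in the titles, and the Uba3F/F libraries, from mice that carry the floxed allele, are labelled wild type and WT. The Cre line, the exons removed and any pooling of mice are not given in the sources used here. The cell type field contradicts the titles, naming group 2 for WT and group 3 for KO throughout; the titles, in which every genotype has both sorted groups, were used.

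TNF family ligands are made as membrane proteins, and several are also shed or secreted. In the thymus, cells that have passed positive selection present them to stroma: RANKL, the product of Tnfsf11, engages RANK on precursors of medullary epithelial cells and drives their maturation, including the expression of Aire, while CD40L, the product of Cd40lg, engages CD40 on epithelial, dendritic and B cells. Lymphotoxin, formed from the products of Lta and Ltb, signals through the lymphotoxin β receptor and shapes the organisation of the medulla. Transcription of several of these ligands in T cells is known to rise after antigen receptor and calcium signals.

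The libraries held 8043077 to 10299863 counts. The library labelled KO in group 2 and the WT library of group 3 had counts for more genes (23925 and 23325) than the library labelled KO in group 3 and the WT library of group 2 (20521 and 20440). Uba3 itself (ENSMUSG00000030061, chromosome 6, 97183670 to 97205647, mm10) had 856 counts in the library labelled KO in group 3 and 647 in that of group 2, against 356 in WT group 3 and 453 in WT group 2. It was thus higher, by 2.06-fold in group 3 (1.82 to 2.34) and 1.70-fold in group 2 (1.504 to 1.92), in the libraries labelled as lacking it. A count over the whole gene does not separate removed from kept exons, and the label KO is therefore used below only as a label. Markers went with the label of thymocytes and, less fully, with the order of the sorted groups. The T lineage genes Cd3e, Cd3g, Lck and Trac were abundant in every library. In group 3, 6 of 7 genes of mature thymocytes rose, while only 2 of 7 genes of immature thymocytes fell.

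The 250 bases before the start site are shown for the genes that the results turn on: Tnfsf11, the ligand that rose in both comparisons, and the neighbours Lta and Tnf, of which Lta passed the test for sorted group and Tnf did not. They are from RefSeq (GRCm38.p6, the assembly of mm10), where 6 of the 7 ligands had an entry, and all 3 lie on the minus strand, Tnfsf11 at chr14:78308044-78308293, Lta at chr17:35205352-35205601 and Tnf at chr17:35202008-35202257. Capitals mark TATAAA and the core recognised by NFAT, the calcium-regulated transcription factor, GGAAA, on either strand (TTTATA and TTTCC).
Tnfsf11: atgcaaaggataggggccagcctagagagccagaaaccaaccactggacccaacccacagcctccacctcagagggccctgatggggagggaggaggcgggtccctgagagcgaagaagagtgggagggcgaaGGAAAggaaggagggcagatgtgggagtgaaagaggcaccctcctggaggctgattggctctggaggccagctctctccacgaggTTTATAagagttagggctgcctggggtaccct
Lta: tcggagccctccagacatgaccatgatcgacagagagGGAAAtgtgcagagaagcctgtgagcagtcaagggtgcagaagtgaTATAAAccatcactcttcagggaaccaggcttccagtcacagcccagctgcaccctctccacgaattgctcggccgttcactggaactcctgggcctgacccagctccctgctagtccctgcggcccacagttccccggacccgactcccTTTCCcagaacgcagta
Tnf: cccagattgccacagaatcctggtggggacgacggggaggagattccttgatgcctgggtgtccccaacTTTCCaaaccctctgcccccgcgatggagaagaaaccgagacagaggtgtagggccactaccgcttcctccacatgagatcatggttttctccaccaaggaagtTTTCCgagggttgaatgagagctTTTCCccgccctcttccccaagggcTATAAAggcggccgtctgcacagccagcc
The TATAAA letters began 32 bases before the start site in Tnfsf11, read on the opposite strand, 29 bases before it in Tnf and 167 bases before it in Lta. They occurred in the same window of 12.4% of 32851 RefSeq promoters. The NFAT core occurred once in Tnfsf11, at 117 bases, at 2 places in Lta and at 3 in Tnf, and in 55.6% of all promoters. No marked motif overlapped another. Among the other motifs searched on both strands in the 6 promoters, the AP-1 letters TGANTCA were found in Tnfsf14 alone (6.75% of all promoters) and the NF-kB consensus in Ltb alone (7.25%), where it overlapped an NFAT core. The Runx letters TGTGGT were found in none of the 6 (14.05% of all) and the KLF core CACCC in all 6 (52.0% of all). These matches are letters in a window and were not tested as sites.

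Levels of the 7 ligands were compared with each other per length, as RPKM (counts scaled to gene length and library size, as deposited by the authors), with 95% Poisson intervals of the counts. Ltb (ENSMUSG00000024399, chromosome 17, 35194439 to 35196320), the membrane-anchoring chain of lymphotoxin, was far above the others: 312 and 251 RPKM in the libraries labelled KO of groups 3 and 2, against 378 and 265 RPKM in WT groups 3 and 2. It made up 70.9% and 82.7% of the summed RPKM of the 7 ligands in the libraries labelled KO of groups 3 and 2, and 79.4% and 84.6% in WT. Cd40lg (ENSMUSG00000031132, chromosome X, 57212143 to 57224042) was next in every library, with 58.5 and 16.8 RPKM in the libraries labelled KO of groups 3 and 2, against 47.7 and 20.3 RPKM in WT. In each genotype its group 3 value was the higher.

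Tnfsf11, Lta and Tnf followed, in an order that differed between libraries. Tnfsf11 (ENSMUSG00000022015, chromosome 14, 78277445 to 78308043) had 33.3 and 10.6 RPKM in the libraries labelled KO of groups 3 and 2, against 13.1 and 4.43 RPKM in WT. Lta (ENSMUSG00000024402, chromosome 17, 35203165 to 35205351), the lymphotoxin chain that also forms a secreted trimer, had 20.4 and 11.8 RPKM in the libraries labelled KO, against 21.7 and 10.9 RPKM in WT. Tnf (ENSMUSG00000024401, chromosome 17, 35199381 to 35202007) had 13.4 and 8.42 RPKM in the libraries labelled KO, against 11.9 and 7.95 RPKM in WT. Tnfsf11 thus stood at rank 3 in the library labelled KO of group 3, at rank 4 in the library labelled KO of group 2 and in WT group 3, and at rank 5 in WT group 2. The intervals of Tnfsf11 and Tnf overlapped in the library labelled KO of group 2 (9.20 to 12.1 and 6.96 to 10.1 RPKM) and in WT group 3 (11.5 to 14.9 and 10.03 to 13.9 RPKM). Those of Tnfsf11 and Lta overlapped in the library labelled KO of group 2 alone, and those of Lta and Tnf overlapped in the same library (9.94 to 13.8 and 6.96 to 10.1 RPKM) and in WT group 2 (9.24 to 12.7 and 6.63 to 9.46 RPKM).

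Tnfsf14 and Tnfsf8 were at the foot of the order in every library. Tnfsf14 (ENSMUSG00000005824, chromosome 17, 57189492 to 57194177) encodes LIGHT, which binds the lymphotoxin β receptor and HVEM, and had 1.83 and 3.601 RPKM in the libraries labelled KO of groups 3 and 2, against 2.14 and 2.87 RPKM in WT. Tnfsf8 (ENSMUSG00000028362, chromosome 4, 63831308 to 63861347) encodes CD30L and had 0.922 and 1.44 RPKM in the libraries labelled KO, against 1.67 and 1.73 RPKM in WT. Their intervals were apart only in the library labelled KO of group 2. Both rest on 32 to 68 counts per library, so that counting error alone is large. No other gene of the table overlaps any of the 7 ligands.

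**Figure D1:**
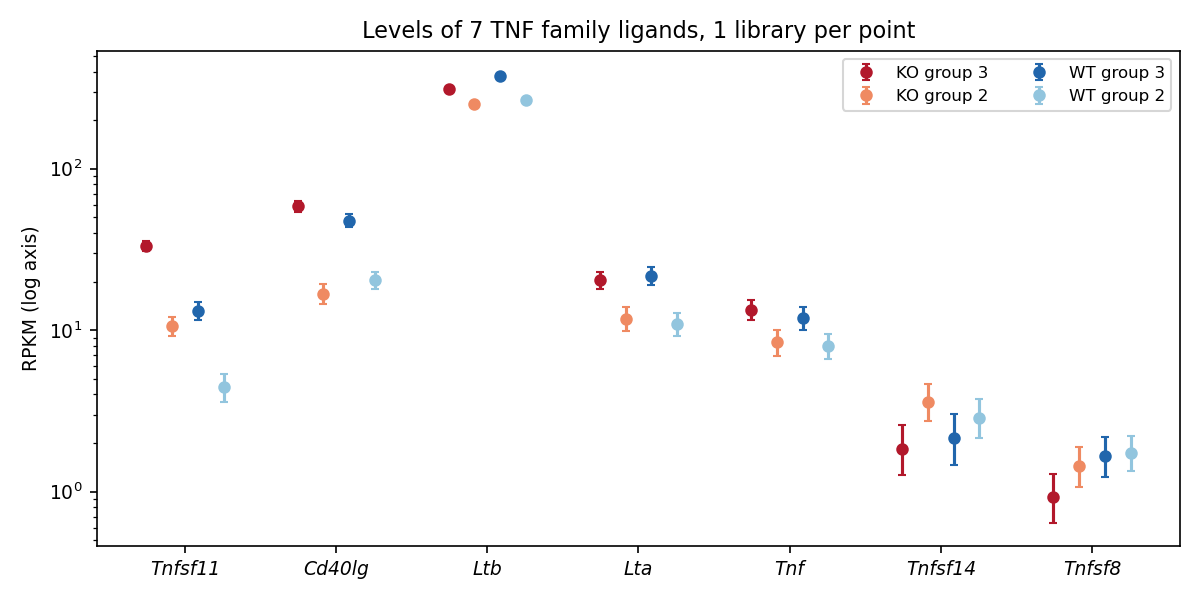
RPKM (log axis) of the 7 ligands in each library, 1 point per library, ordered by gene with the libraries labelled KO left of WT; bars are 95% Poisson intervals of the count. Ltb lies between 251 and 378 RPKM in all 4 libraries, while Tnfsf11 lies at 33.3 RPKM in the library labelled KO of group 3 and at 4.43 RPKM in WT group 2.

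Group 3 was then compared with group 2, the later with the earlier of the sorted populations. Tnfsf11, Cd40lg and Lta rose in group 3, and Ltb, Tnf, Tnfsf14 and Tnfsf8 did not pass the test. The test was edgeR's quasi-likelihood test of sorted group plus genotype over the 4 libraries, adjusted by Benjamini-Hochberg over the 12490 genes, in which 2.21% of all genes rose and 1.14% fell. Its error is the part of the step that differs between genotypes, shared over genes, and does not measure the spread between mice. As RNA of bulk sorted cells was counted, fewer cells with a transcript and less of it per cell cannot be told apart here or below. Folds of 1 library over another are given with 95% intervals for counting error, and levels of 1 gene across libraries in CPM scaled by TMM.

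Tnfsf11 had 75.7 and 24.0 scaled CPM in groups 3 and 2 of the libraries labelled KO, and 28.9 and 9.72 scaled CPM in groups 3 and 2 of WT. Group 3 was 3.15-fold above group 2 for KO as labelled (2.70 to 3.69) and 2.98-fold above it for WT (2.35 to 3.795), and over both genotypes Tnfsf11 rose by 1.62 (log2, SE 0.21; edgeR, adjusted p = 9.73e-12). Group 3 of WT and group 2 of the libraries labelled KO lay close together, so that the sorted groups did not overlap but came within 28.9 against 24.0 scaled CPM.

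Cd40lg had 74.5 and 21.3 scaled CPM in groups 3 and 2 of the libraries labelled KO, and 58.9 and 24.96 scaled CPM in WT. Its level in group 3 was 3.50-fold that in group 2 for KO as labelled (2.97 to 4.13) and 2.36-fold for WT (2.02 to 2.75), and rose by 1.52 over both (log2, SE 0.19; edgeR, adjusted p = 2.08e-12). Both group 3 libraries were more than 2-fold above both group 2 libraries. Cd40lg is X-linked; all 4 libraries held counts of Y-linked genes.

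Lta had 28.7 and 16.5 scaled CPM in groups 3 and 2 of the libraries labelled KO, and 29.6 and 14.8 scaled CPM in WT. The ratio of group 3 to group 2 was 1.73 for KO as labelled (1.41 to 2.13) and 2.00 for WT (1.63 to 2.47), and it rose by 0.90 (log2, SE 0.23; edgeR, adjusted p = 0.0052), a call that DESeq2 did not make (adjusted p = 0.331). The Lta call was also lost with genotype out of the model (edgeR, adjusted p = 0.380) and with any 1 library left out. In the latter fits, where genotype mixes with sorted group, the step of Lta was 0.82 to 0.98 (log2). The group 3 libraries lay apart from the group 2 libraries.

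Ltb had 369 and 296 scaled CPM in groups 3 and 2 of the libraries labelled KO, and 432 and 302 scaled CPM in WT. The fitted difference was 0.42 (log2, SE 0.14; edgeR, adjusted p = 0.0805), and limma-voom put it past 0.05 (adjusted p = 0.0454). Tnf had 21.1 and 13.3 scaled CPM in groups 3 and 2 of the libraries labelled KO and 18.2 and 12.1 scaled CPM in WT, a fitted difference of 0.63 (log2, SE 0.25; edgeR, adjusted p = 0.213). For Ltb as for Tnf, both group 3 libraries were above both group 2 libraries. Tnfsf14 had 3.47 and 6.80 scaled CPM in groups 3 and 2 of the libraries labelled KO and 3.92 and 5.24 scaled CPM in WT, the opposite order, with a fitted difference of -0.69 (log2, SE 0.53; edgeR, adjusted p = 0.804). Tnfsf8 had 3.57 and 5.55 scaled CPM in groups 3 and 2 of the libraries labelled KO and 6.25 and 6.48 scaled CPM in WT, and the groups overlapped.

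By the rule for a pair of libraries, at least 2-fold after 0.5 CPM was added to each level and with an interval of the ratio that excludes 1, Tnfsf11 and Cd40lg were higher in group 3 within each genotype, 2 of the 7 ligands, where 1.85% of all measured genes were higher in the libraries labelled KO and 5.22% in WT. In the libraries labelled KO 46 of the 12490 genes had a larger fold than Cd40lg and 56 a larger fold than Tnfsf11, while in WT 413 and 209 did. Lta in WT, at a ratio of 2.00, did not meet the rule with the added 0.5 CPM (log2 0.98). None of the 7 was lower, where 5.99% of all genes were lower in the libraries labelled KO and 1.86% in WT. The median fitted step of the 7 ligands was 0.63 (log2), beside -0.01 for all measured genes. The calls for Tnfsf11 and Cd40lg held with DESeq2. With 1 library left out and genotype out of the model, both were called only without the WT library of group 3. Genotype mixes with sorted group in these fits, so they cannot check the calls. Their fitted step ran over 0.78 to 2.43 for Tnfsf11 and 1.35 to 1.69 for Cd40lg (log2).

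**Figure D2:**
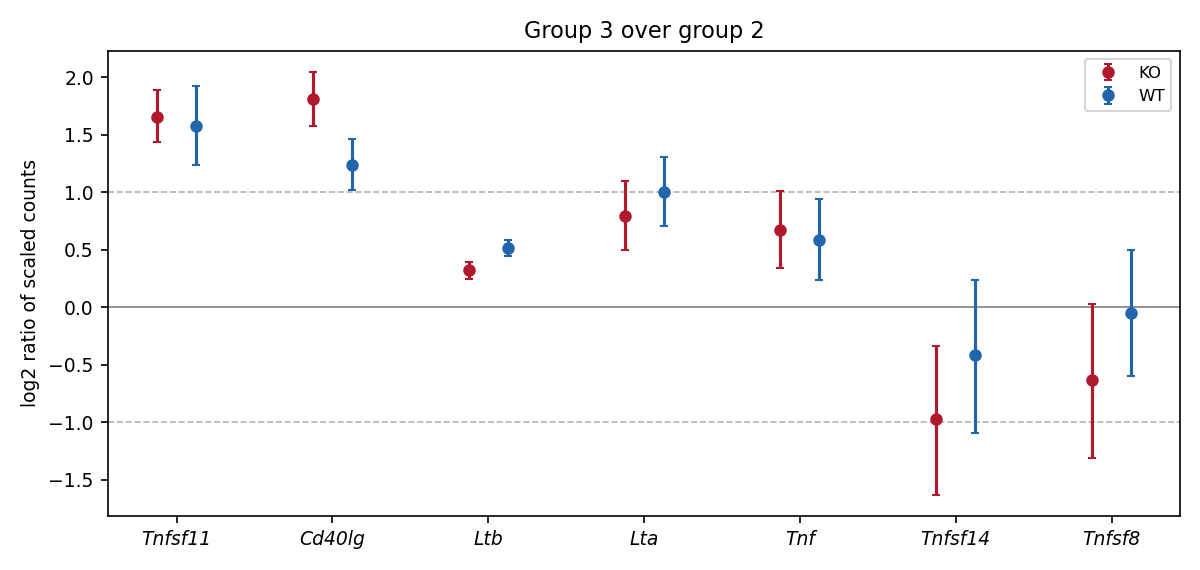
Log2 ratio of scaled counts of group 3 over group 2 for each ligand, in the libraries labelled KO (red, left) and in WT (blue, right), with 95% intervals for counting error; dashed lines mark 2-fold. Tnfsf11 and Cd40lg lie above 2-fold in both genotypes, at 3.15-fold and 3.50-fold in the libraries labelled KO and 2.98-fold and 2.36-fold in WT.

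Between genotypes, Tnfsf11 alone of the 7 ligands passed the test, and it was higher in the libraries labelled KO. In group 3 it had 75.7 scaled CPM in the library labelled KO and 28.9 scaled CPM in WT, from 721 and 236 counts, a ratio of 2.62 (2.26 to 3.04). In group 2 it had 24.0 scaled CPM in the library labelled KO and 9.72 scaled CPM in WT, from 212 and 102 counts, a ratio of 2.47 (1.94 to 3.16). Within each sorted group the library labelled KO was thus the higher, by a similar ratio. Over both sorted groups Tnfsf11 rose by 1.35 (log2, SE 0.21; edgeR, adjusted p = 3.76e-08), where 2.95% of all genes rose and 1.87% fell, and DESeq2 made the same call (adjusted p = 0.000809). By the 2-fold rule it was higher in both sorted groups, where 2.17% of all genes were higher in group 3 and 6.45% in group 2, and 113 and 504 genes of the 12490 had a larger fold. None of the 7 ligands was lower by that rule, beside 5.60% of all genes in group 3 and 2.44% in group 2.

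The genotype call of Tnfsf11 was lost in 2 of the 4 fits with 1 library left out. In these fits sorted group was out of the model and mixes with genotype. Without the library labelled KO of group 3 the fitted genotype difference of Tnfsf11 was 0.32 (log2). Without the WT library of group 2 it was 0.79. The call was kept in the other fits, at 1.99 without the library labelled KO of group 2. Without the WT library of group 3 the difference was 2.36. The step of Tnfsf11 from group 2 to group 3 lowers the first 2 of these values and raises the last 2. These fits thus cannot check the genotype call.

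The other 6 ligands did not pass the test between genotypes, and the 95% intervals of the fit with all 4 libraries are given beside each difference. The fitted log2 difference of Cd40lg was 0.07 (interval -0.30 to 0.45; edgeR, adjusted p = 0.955), that of Lta 0.05 (-0.39 to 0.50) and that of Ltb -0.13 (-0.41 to 0.15). A genotype difference of 2-fold lies outside each of these 3 intervals, which rest on 1 library per group. With 1 library left out and sorted group out of the model, the fitted difference was -0.97 to 0.94 for Cd40lg. It was -0.41 to 0.62 for Lta and -0.38 to 0.14 for Ltb. Sorted group mixes with genotype in these fits, so they cannot check the intervals. For Tnf the difference was 0.18 (-0.32 to 0.67), for Tnfsf8 -0.51 (-1.45 to 0.44) and for Tnfsf14 0.11 (-0.93 to 1.15), and a 2-fold difference lies inside the interval of the last 2, which have the fewest counts. The median over the 7 ligands was 0.07, beside 0.00 for all measured genes.

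The genotype ratio of some ligands was not the same in the 2 sorted groups beyond counting error. Cd40lg was 1.26-fold higher in the library labelled KO in group 3 (1.12 to 1.42) and at 0.853 of WT in group 2 (0.704 to 1.03), a difference of 0.57 between the log2 ratios (0.25 to 0.89). Ltb stood at 0.854 of WT in group 3 (0.814 to 0.895) and at 0.978 in group 2 (0.928 to 1.03), a difference of -0.20 (-0.30 to -0.10). For Tnfsf11 the difference was 0.08 (-0.32 to 0.48), and for Lta, Tnf, Tnfsf8 and Tnfsf14 the interval included 0 as well. With 1 library in each group these differences have no replicate check and cover counting error only. The libraries also differed along the same line in genes with counts. These were 20521 in KO group 3 and 20440 in WT group 2, against 23925 in KO group 2 and 23325 in WT group 3. Over all measured genes, 2.17% were higher and 5.60% lower in KO in group 3, against 6.45% and 2.44% in group 2. The part of this in the differences of Cd40lg and Ltb was not tested. Tnfsf8 stood at 0.571 of WT in group 3 (0.359 to 0.898) on 34 and 51 counts, and at 0.857 in group 2 (0.581 to 1.26).

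**Figure D3:**
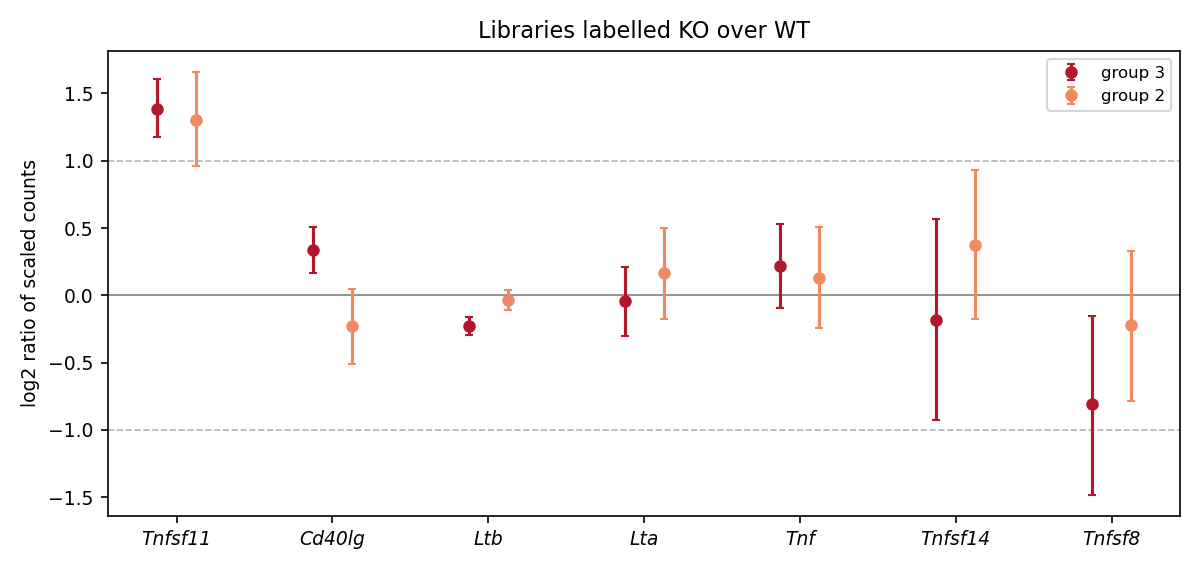
Log2 ratio of scaled counts of the libraries labelled KO over WT for each ligand, in group 3 (dark, left) and in group 2 (light, right), with 95% intervals for counting error; dashed lines mark 2-fold. Tnfsf11 lies at 2.62-fold and 2.47-fold, and every other ligand lies within 2-fold of WT in both sorted groups.

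**Figure D4:**
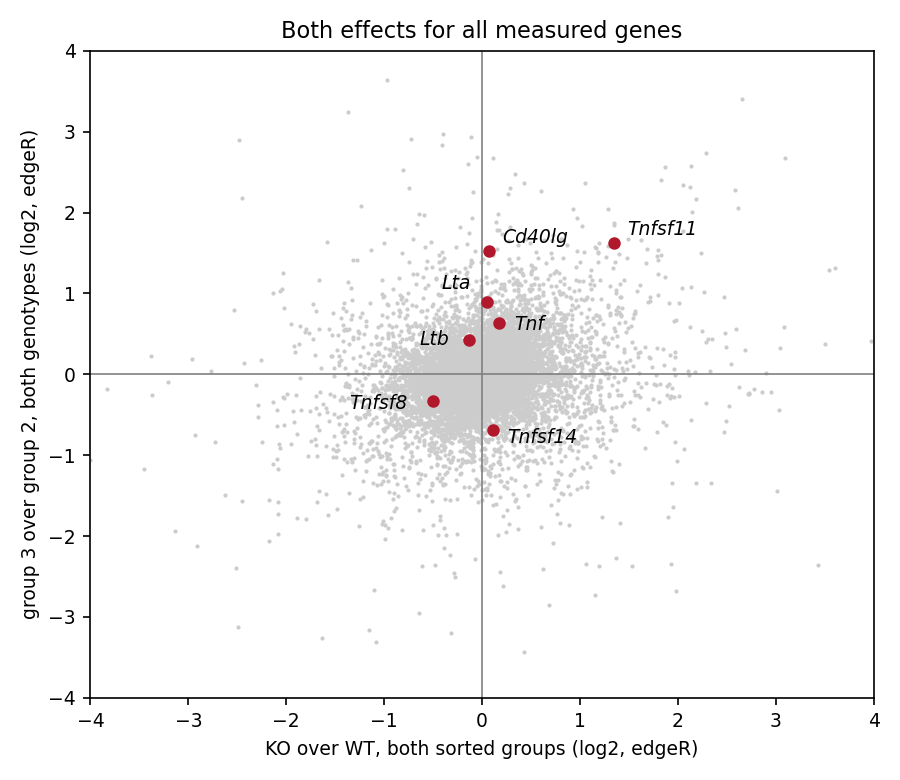
Fitted log2 difference between genotypes (libraries labelled KO over WT, x axis) and between sorted groups (group 3 over group 2, y axis) for the 12490 measured genes in grey and the 7 ligands in red; genes beyond 4 on either axis are not drawn. Tnfsf11 lies at 1.35 and 1.62, while Cd40lg, at 1.52 on the y axis, is near 0 between genotypes.

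Ltb, Tnf and Lta lie side by side on chromosome 17 within 10913 bp, with Tnf and Lta transcribed in the same direction and 1157 bp apart. Lta and Tnf had the most alike patterns of any pair of the 7, with a distance of 0.32 (the Euclidean distance of their 4 log2 CPM values after centring each gene). Of 12 other measured genes within 100 kb, H2-D1, a class I major histocompatibility gene whose reads may be shared with its close relatives, rose between genotypes by 0.42 (log2, SE 0.12; edgeR, adjusted p = 0.0203) and in group 3 by 0.82 (edgeR, adjusted p = 1.2e-08). Bag6, a chaperone gene, fell in group 3 by 0.80 (log2, SE 0.20; edgeR, adjusted p = 0.0045), and the other 10 passed neither test. Around Tnfsf11, 7 other measured genes lay at least in part within 1 Mb. Of these Epsti1, an interferon-induced gene, rose between genotypes by 0.58 (log2, SE 0.15; edgeR, adjusted p = 0.0046). The other 6 had fitted differences of -0.27 to 0.36 without passing. The highest of these, that of Enox1, rests on 0 to 19 counts per library (SE 2.16) and leaves its change unmeasured. None of the 7 passed for sorted group. These neighbours were chosen after the values of the ligands were seen.

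**Figure D5:**
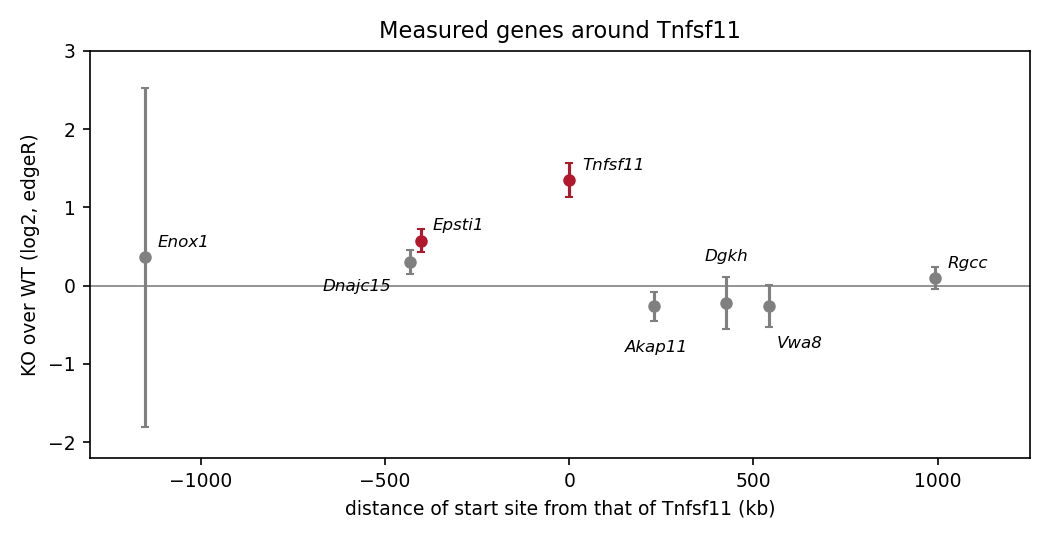
Fitted log2 difference between libraries labelled KO and WT (y axis, bars are 1 SE) of Tnfsf11 and the 7 other measured genes that lie at least in part within 1 Mb of it, by distance of the start site from that of Tnfsf11 (x axis, kb, in chromosome direction); red marks genes that passed the edgeR test. Tnfsf11 lies at 1.35 and Epsti1 at 0.58, and the other genes lie between -0.27 and 0.36. Enox1, at 0.36, has an SE of 2.16.

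The genes whose pattern over the 4 libraries was most like that of a ligand were named by the same distance among genes with 10 CPM in a library. For Tnfsf11 these were Prag1, Aqp9 and Ifi214, each at a distance of 0.46, with Cd40lg the nearest ligand at 1.28. For Cd40lg they were Inpp4b at 0.19, Gimap4, a GTPase gene, at 0.31 and Card6 at 0.34. Gtpbp3, Bin1 and Prickle3 were nearest to Lta at 0.067 to 0.088. The nearest to Ltb were Fbxw9, Ampd2 and Pank4, and the nearest to Tnf were Ap2a2, Itgb2 and Klhl26. Gpr19, Hcfc1r1 and Tk1 were nearest to Tnfsf8, and Pam, Abhd2 and Ddah2 to Tnfsf14. The distance of a ligand from a flat pattern was 2.06 for Tnfsf11, 1.53 for Cd40lg and 0.45 to 0.88 for the other 5, so that near neighbours of these 5 are also near to flat.

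Of 8 genes for the receptors of these ligands, 5 were measured in thymocytes, and 1 of them, Tnfrsf1b, passed in each comparison, where 2.95% of all genes rose between genotypes and 2.21% in group 3. Tnfrsf1b encodes the TNF receptor 2 and had 71.5 and 53.2 scaled CPM in the libraries labelled KO of groups 3 and 2, against 48.8 and 25.2 scaled CPM in WT. It rose between genotypes by 0.81 (log2, SE 0.19; edgeR, adjusted p = 0.000863) and in group 3 by 0.68 (log2, SE 0.19; edgeR, adjusted p = 0.0111), and DESeq2 made neither call (adjusted p = 0.10 and 0.323). Tnfrsf1a, the TNF receptor 1 gene and the most abundant of the list per length, had 81.2 and 98.3 scaled CPM in the libraries labelled KO against 81.6 and 81.9 scaled CPM in WT, with no call. The receptors through which RANKL and lymphotoxin act on stroma were near the floor: Tnfrsf11a (RANK) had 7 to 16 counts per library and Ltbr 0 to 13. Tnfrsf11b, the decoy receptor for RANKL, had 0 to 4. The list's median fitted difference was 0.13 between genotypes and -0.14 between sorted groups (log2).

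Of 11 other TNF family ligands 3 were measured, Tnfsf9, Tnfsf10 and Fasl, and none passed either test. Tnfsf9 (4-1BBL) had 2.73 and 7.93 scaled CPM in the libraries labelled KO of groups 3 and 2, against 2.82 and 1.71 scaled CPM in WT, so that the library labelled KO of group 2 was the high one. Tnfsf13 and Eda had 0 counts in every library. Of the genes for shedding of the ligands, 3 of 4 were measured and none passed, among them Adam10, a sheddase gene, at -0.03 between genotypes and 0.09 between sorted groups (log2).

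Among the 20 TRAF and NF-kB genes through which the receptors of this family signal, 2 rose and none fell between genotypes, where 2.95% of all genes rose and 1.87% fell. Tnfaip3, the gene of the NF-kB inhibitor A20, had 498 and 518 scaled CPM in the libraries labelled KO of groups 3 and 2, against 294 and 347 scaled CPM in WT, and rose by 0.67 (log2, SE 0.14; edgeR, adjusted p = 0.000142). Traf5, an adaptor gene, rose by 0.98 (log2, SE 0.28; edgeR, adjusted p = 0.0168), which DESeq2 did not call (adjusted p = 0.531). In group 3, where 2.21% of all genes rose and 1.14% fell, none of the list rose and Nfkb1 fell by 0.64 (log2, SE 0.18; edgeR, adjusted p = 0.0197; DESeq2, adjusted p = 0.424). The list's median was 0.01 between genotypes and 0.16 between sorted groups (log2).

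Of the 15 genes of the calcium and antigen receptor response, 4 rose between genotypes and none fell, beside 2.95% and 1.87% of all genes. Nr4a1, an immediate early nuclear receptor gene, had 798 and 671 scaled CPM in the libraries labelled KO of groups 3 and 2, against 390 and 366 scaled CPM in WT, and rose by 0.95 (log2, SE 0.14; edgeR, adjusted p = 1.03e-09). Egr1, another immediate early gene, rose by 0.72, Orai1, the calcium channel gene, by 0.67 and Nfatc1, an NFAT gene, by 0.49 (log2; edgeR, adjusted p = 2.99e-05, 0.00166 and 0.0255), and DESeq2 did not call Nfatc1 (adjusted p = 0.127). In group 3 (2.21% of all genes higher and 1.14% lower) Egr1 rose by 0.70 (log2; edgeR, adjusted p = 8.54e-05), while Nfatc1 fell by 0.73 and Cd5, a negative regulator of receptor signals, fell by 0.64 (log2; edgeR, adjusted p = 0.000101 and 0.000328). The calcineurin subunit genes Ppp3ca, Ppp3cb, Ppp3cc and Ppp3r1 passed neither test. The list's median was 0.09 between genotypes and 0.02 between sorted groups (log2). The part of these genes in the difference of Tnfsf11 was not tested.

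Of 7 mature stage genes 6 rose in group 3 (2.21% of all genes), among them Gimap4 by 1.78, Ccr7, a chemokine receptor gene for entry to the medulla, by 1.75, Il7r by 1.18 and Klf2, a regulator of egress, by 0.83 (log2), and none fell. Between genotypes Ccr7 had a fitted difference of -0.13 (log2, SE 0.14) and did not pass. Of 7 immature stage genes 2, Dntt and Cd8b1, fell in group 3 (1.14% of all genes), and 4 fell between genotypes (1.87% of all genes): Ptcra by 1.24, Rag2 by 0.77, Rag1 by 0.62 and Arpp21 by 0.47 (log2). Of 9 genes of the CD4 and CD8 lineages, Zbtb7b, the CD4 lineage regulator, rose in group 3 by 1.82 (log2, SE 0.29; edgeR, adjusted p = 5.12e-08), Cd8b1 fell by 0.41, and none passed between genotypes. DESeq2 did not call Dntt, Cd8b1 or S1pr1, another mature stage gene, for sorted group (adjusted p = 0.207, 0.167 and 0.207). Their part in the ligands' differences was not tested.

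Other cells of the thymus also express some of these ligands, and their markers were compared in the same fits. Of 6 B cell genes 5 were measured and none passed, and their summed level was 782 and 1103 scaled CPM in the libraries labelled KO of groups 3 and 2, against 987 and 1112 scaled CPM in WT, most of it Ighm, while Pax5 had 1 to 4 counts per library. Of 9 myeloid and dendritic genes 8 were measured, with sums of 93.9 and 80.6 scaled CPM in the libraries labelled KO against 62.4 and 54.0 scaled CPM in WT. On that list C1qb rose between genotypes by 1.12 (log2, SE 0.34; edgeR, adjusted p = 0.0252), which DESeq2 did not call (adjusted p = 0.553). The sums of the myeloid genes were thus higher in the libraries labelled KO, as was Tnfsf11, and their part in it was not tested. Of 8 innate lymphoid and natural killer genes 5 were measured, and none passed. Their summed level was 14.8 and 14.7 scaled CPM in the libraries labelled KO against 13.7 and 16.2 scaled CPM in WT, and Il23r had 0 to 9 and Il22 0 to 7 counts per library. Of 4 γδ T cell genes found, 3 were measured and none passed, with sums of 75.3 and 96.4 scaled CPM in the libraries labelled KO against 104.6 and 98.1 scaled CPM in WT. Of 9 thymic epithelial genes, the targets of RANKL in the medulla among them, 2 were measured and neither passed. The list's summed level was 37.0 and 39.1 scaled CPM in the libraries labelled KO against 33.4 and 43.2 scaled CPM in WT. The defining genes Foxn1, Krt5 and Psmb11 had 0 to 6 counts per library and Aire 3 to 12.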

How the data were processed

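Thymocytes of 4 libraries, 1 per group, were sequenced. Counts by Ensembl gene and, for each library, RPKM were deposited. The submitters' processing notes name TopHat2 2.0.12 and mm10. Not given in the sources used here are the counter, its annotation and strandedness, so reads of antisense genes may be mixed with those of a gene. Deposited RPKM and deposited counts together implied a whole gene length within 0.01 bp for 100% of values. Symbols and coordinates came from GENCODE M21 (34490 of 35275 IDs; the others held at most 0.128% of the counts of a library).

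Counts were scaled by TMM (edgeR 4.0.16, R 4.3.3). Genes with 2 CPM in at least 1 library entered edgeR's quasi-likelihood F test with terms for sorted group and genotype (residual degrees of freedom 1, spread shrunk fully to the trend, common dispersion 0.0288, Benjamini-Hochberg threshold 0.05). Standard errors were the fitted log2 difference over the root of F. The labels do not say whether both sorted groups of a genotype came from the same mice, and each group has 1 library, so p-values measure only the spread between these libraries, which may be technical. In counts simulated for the genotype test on 12490 genes, a 2-fold change was called in 159 of 200 genes, beside 6 false calls, and a 4-fold change in 194 of 200, beside 9. The simulated spread was the one fitted to these libraries, with the same genotype effect in both sorted groups. Changed genes were drawn only from those above a minimum mean level, which was higher than the filter. The simulation thus checks the code under the model and does not measure false calls or power in these data. Folds between 2 libraries used log2 of scaled CPM plus 0.5 for calls, and the ratio of scaled counts with an exact conditional binomial (Clopper-Pearson) 95% interval in the text. Intervals cover counting error only.

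The ligands, the 14 gene lists beside them and the tests were chosen with earlier results of these data known. From each list the text names the gene with the highest mean RPKM and up to 4 genes that passed each edgeR test, and, for each ligand, the 3 genes of nearest pattern; other genes were named after their values were seen, and 1 gene that the rule took is not reported here. Alternatives were DESeq2 1.42.0, limma-voom (limma 3.58.1), other filters, scalings and pseudocounts, models without the other factor, and 1 library left out.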

Additional observations from a re-analysis of the deposited data

How the results depend on the processing

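The calls of the ligands by the 2-fold rule were the same under the 6 alternatives tried for 5 of them and under the 5 that Tnfsf8 and Tnfsf14, both under 10 CPM, could enter. Counts over all genes were less stable. Of 271 genes higher and 699 lower in the library labelled KO of group 3, and 806 and 305 in that of group 2, a pseudocount of 2 CPM left 124 and 180, and 314 and 112; a filter of 10 CPM left 112 and 94, and 176 and 103; no filter gave 443 and 1816, and 2419 and 551. For group 3 over group 2, the 231 higher and 748 lower in the libraries labelled KO and the 652 and 232 in WT became 121 and 220, and 203 and 86, with that pseudocount, 107 and 92, and 134 and 53, with that filter, and 427 and 1951, and 1799 and 483, with no filter.

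For genotype edgeR called 368 genes higher and 234 lower. Without a filter 244 rose and 125 fell, under filterByExpr 195 and 104, by DESeq2 125 and 54, and by a model lacking sorted group 17 and 6, where no ligand was called (0) and Tnfsf11 stood at 1.38 (adjusted p = 0.509). Leaving out each library gave 25 to 80 and 11 to 42, with 0 to 1 ligand called. For sorted group the 276 higher and 143 lower became 169 and 57 under filterByExpr and 100 and 39 by DESeq2, and 83 fell without a filter. A model lacking genotype gave 9 and 5, with 1 ligand called (Cd40lg, adjusted p = 0.0433), and leaving out each library gave 2 to 36 and 5 to 10, with 0 to 2 ligands called. DESeq2 called 2 ligands for sorted group, without Lta, and limma-voom 4, with Ltb.

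With 1 library left out, ligands without a call changed sign, where both factors mix: over these fits the genotype difference ran over -0.97 to 0.94 for Cd40lg, -0.41 to 0.62 for Lta, -0.38 to 0.14 for Ltb, -0.19 to 0.51 for Tnf and -0.40 to 0.56 for Tnfsf14, and the sorted group difference over -0.75 to 0.055 for Tnfsf8 and -0.41 to 0.64 for Uba3 (log2). The Uba3 call for genotype was lost in some of these fits (adjusted p 0.0298 to 0.310). No paired analysis was possible because each group held 1 library and the labels carry no replicate numbers. Depth limits Tnfsf8 and Tnfsf14, at 32 to 68 counts.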

Other observations

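The library labelled KO of group 2 can be set beside the WT library of group 3, a pair that differs in both genotype and sorted group and was chosen after the values were seen. Tnfsf11 stood in the library labelled KO of group 2 at 0.830 of its level in WT group 3 (0.686 to 1.003), while Cd40lg stood at 0.362 (0.304 to 0.429), Lta at 0.559, Ltb at 0.684 and Tnf at 0.730. The mature stage genes Ccr7, Gimap4 and Il7r stood at 0.270, 0.323 and 0.316 of WT group 3, and Klf2 at 0.421. Tnfsf14 was 1.73-fold higher (1.11 to 2.75). The earlier library labelled KO thus had nearly the Tnfsf11 level of the later WT library, with its Cd40lg and Ccr7 well below it. The intervals cover counting error only, and the comparison has no replicate check.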
